A study of Homo sapiens with 12 samples.

Results

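UBE2C and 9 other genes of the anaphase-promoting complex were followed through 12 RNA-seq libraries of prostate cancer cells. The 10 genes were taken by symbol from the 19973 genes of the deposited table: the conjugating enzymes UBE2C and UBE2S, the activators CDC20 and FZR1, the inhibitor FBXO5, and the subunits CDC27, CDC16, CDC23, ANAPC1 and ANAPC11. UBE2C was included as a reported target of ARv7, a product of alternative splicing known from prostate cancer. All 10 genes had enough counts to be tested in both lines.

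The cells were C4-2, an LNCaP derivative that grows after castration, and 22Rv-1, which comes from a serially passaged xenograft and makes ARv7 itself. The C4-2 groups carried either a control lentivirus or one for overexpression of ARv7. The 22Rv-1 groups carried a lentivirus with either a control short hairpin or a short hairpin against ARv7. Per the labels, all groups had the lentivirus, and the design text gives selection in puromycin for the ARv7-expressing and ARv7-depleted cells. Each of the 4 groups had 3 libraries, made from dishes plated in triplicate. The number of selections behind each group is not stated in these sources, so p-values measure only the spread between dishes. Whatever else differs between selected cells of 2 groups cannot be told apart from ARv7.

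Total counts were 12318529 to 14672948 per library. All 10 prostate epithelial markers had counts in every group, while the summed level of 6 leukocyte markers was at most 11.04 CPM (reads of a gene set against the scaled size of its library) and that of 5 endothelial markers at most 9.09 CPM. The 7 fibroblast markers summed to 8.78 to 10.2 CPM in C4-2 control, 15.4 to 17.4 in C4-2 with ARv7, 44.6 to 46.7 in 22Rv-1 control and 29.1 to 32.7 after depletion. DCN and LUM were at 0 counts in C4-2 control, PDGFRA in C4-2 with ARv7, and CDH5 in C4-2 control and both 22Rv-1 groups. Other markers of these lists were present. LUM had 953 reads over 22Rv-1 control and 98 after depletion, and COL3A1 had 179 and 290. COL1A1 had from 327 reads over C4-2 control to 891 over depleted 22Rv-1. The endothelial marker VWF had 146 reads over C4-2 control and 348 with ARv7. The 6 proliferation markers (MKI67, PCNA, TOP2A, MCM2, MCM5 and TYMS) all rose in C4-2 with ARv7 and all fell in depleted 22Rv-1. Their summed level was 119 to 131 CPM in C4-2 control, 456 to 462 with ARv7, 1329 to 1358 in 22Rv-1 control and 923 to 947 after depletion. Their part in the results below was not tested. In bulk RNA a change in the share of dividing cells and a change in RNA per cell cannot be told apart.

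The anaphase-promoting complex is a ubiquitin ligase that marks cyclins, securin and other proteins of mitosis for destruction by the proteasome. It works in mitosis with the activator CDC20 and, from late mitosis through G1, with the activator CDH1, encoded by FZR1. UBE2C starts ubiquitin chains on the substrates and UBE2S lengthens them, while FBXO5 (EMI1) holds the complex off before mitosis. Genes of mitosis are commonly transcribed with a peak late in the cell cycle, and UBE2C is a known marker of fast-growing prostate tumours.

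Promoters of 4 genes are printed because these genes stand for the different behaviours described next: CDC20, FBXO5 and UBE2S, which rose in C4-2 and fell in 22Rv-1, and FZR1, the activator that did not pass in C4-2. The sequences are from RefSeq on GRCh38.p14, 5′ to 3′ on the gene's strand, from 250 bases before to 50 after an annotated start. The windows are chr1:43358731-43359030 (+ strand) for CDC20, chr6:152982992-152983291 (− strand, the second of its listed starts) for FBXO5, chr19:55407739-55408038 (− strand) for UBE2S and chr19:3506061-3506360 (+ strand, the first of its listed starts) for FZR1. Capitals mark TTTGAA, the letters of the cell-cycle homology region, and CCAAT, each on either strand. Where CCAAT and its reverse ATTGG overlap, as in FBXO5, the capitals run together.
CDC20: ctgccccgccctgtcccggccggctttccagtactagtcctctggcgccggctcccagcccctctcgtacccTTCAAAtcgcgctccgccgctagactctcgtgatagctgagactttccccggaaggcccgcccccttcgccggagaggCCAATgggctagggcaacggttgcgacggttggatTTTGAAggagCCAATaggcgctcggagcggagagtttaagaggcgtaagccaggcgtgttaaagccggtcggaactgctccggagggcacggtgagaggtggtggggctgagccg
FBXO5: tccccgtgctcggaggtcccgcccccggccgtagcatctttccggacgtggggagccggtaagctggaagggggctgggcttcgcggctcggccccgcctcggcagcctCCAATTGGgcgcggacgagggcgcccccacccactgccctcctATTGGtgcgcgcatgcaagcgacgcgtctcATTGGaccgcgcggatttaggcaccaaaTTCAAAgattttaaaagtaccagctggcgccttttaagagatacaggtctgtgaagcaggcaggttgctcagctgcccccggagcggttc
UBE2S: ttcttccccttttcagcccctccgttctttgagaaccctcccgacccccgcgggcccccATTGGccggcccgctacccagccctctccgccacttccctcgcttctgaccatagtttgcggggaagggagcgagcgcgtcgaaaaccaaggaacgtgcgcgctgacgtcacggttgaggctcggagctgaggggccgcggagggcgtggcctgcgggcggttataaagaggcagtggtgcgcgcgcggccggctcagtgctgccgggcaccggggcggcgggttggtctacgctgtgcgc
FZR1: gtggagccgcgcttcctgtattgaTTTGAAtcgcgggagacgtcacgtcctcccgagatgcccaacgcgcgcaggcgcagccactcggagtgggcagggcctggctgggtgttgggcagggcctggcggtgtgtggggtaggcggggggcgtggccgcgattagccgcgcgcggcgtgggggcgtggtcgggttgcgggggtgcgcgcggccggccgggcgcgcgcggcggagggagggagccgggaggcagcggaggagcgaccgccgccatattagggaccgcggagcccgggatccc
The CDC20 window holds TTTGAA at positions -178 and -65 and CCAAT at -100 and -55, counted from the start as 0. The FBXO5 window holds TTTGAA at -40 and CCAAT at -141, -138, -98 and -68. UBE2S has 1 CCAAT, at -191, and FZR1 has 1 TTTGAA, at -226, and no CCAAT. The window at the first listed start of FBXO5, which is the deposited end of the gene, holds neither, and nor does that at the second start of FZR1. Of the 10 genes 9 had an entry, and UBE2C did not. Over their 14 windows TTTGAA was in 4 and CCAAT in 9, where 15.2% and 34.6% of all 35116 windows of that length held them and 5.9% held both. A pair of the ANAPC11 windows overlap and hold the same CCAAT, so 1 match counts for both. These matches describe letters only.

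UBE2C, the conjugating enzyme that starts the chain, was almost absent from C4-2 control and clearly present in C4-2 with ARv7. The C4-2 control libraries had 4, 3 and 2 reads and the C4-2 libraries with ARv7 had 223, 221 and 213. The 22Rv-1 control libraries had 685, 666 and 742 reads, and the depleted libraries 579, 577 and 631. Libraries of the 4 groups did not overlap in CPM in any pair of groups. As a level scaled by TMM over all 12 libraries, UBE2C stood at 0.223 ± 0.068 CPM in C4-2 control (mean ± SD, n = 3 here and in all later levels) and at 15.97 ± 0.975 with ARv7. The level was 48.8 ± 1.59 CPM in 22Rv-1 control and 42.4 ± 0.409 after depletion.

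With ARv7 UBE2C rose by 6.09 ± 0.27 on the log2 scale in C4-2 (± standard error here and for all log2 changes, 95% interval 5.58 to 6.71, edgeR adjusted p = 2.18e-13), rank 9 of 12783 genes from the largest rise. Because the control group held only 9 reads in all against 657, the ratio of CPM on total counts was 78.0 with an exact interval of 40.8 to 171.4, which covers counting error only. In depleted 22Rv-1 UBE2C fell by 0.20 ± 0.076 (edgeR adjusted p = 0.0251). That fall was not called with total counts (edgeR adjusted p = 0.0947), in 1 fit of all 12 libraries (edgeR adjusted p = 0.0512), or without control replicate 2 (0.0777), depleted replicate 1 (0.0652) or depleted replicate 2 (0.0601). UBE2C passed in 9 of 15 alternatives in 22Rv-1, at adjusted p from 0.0189 to 0.987, and in 15 of 15 in C4-2.

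**Figure D1:**
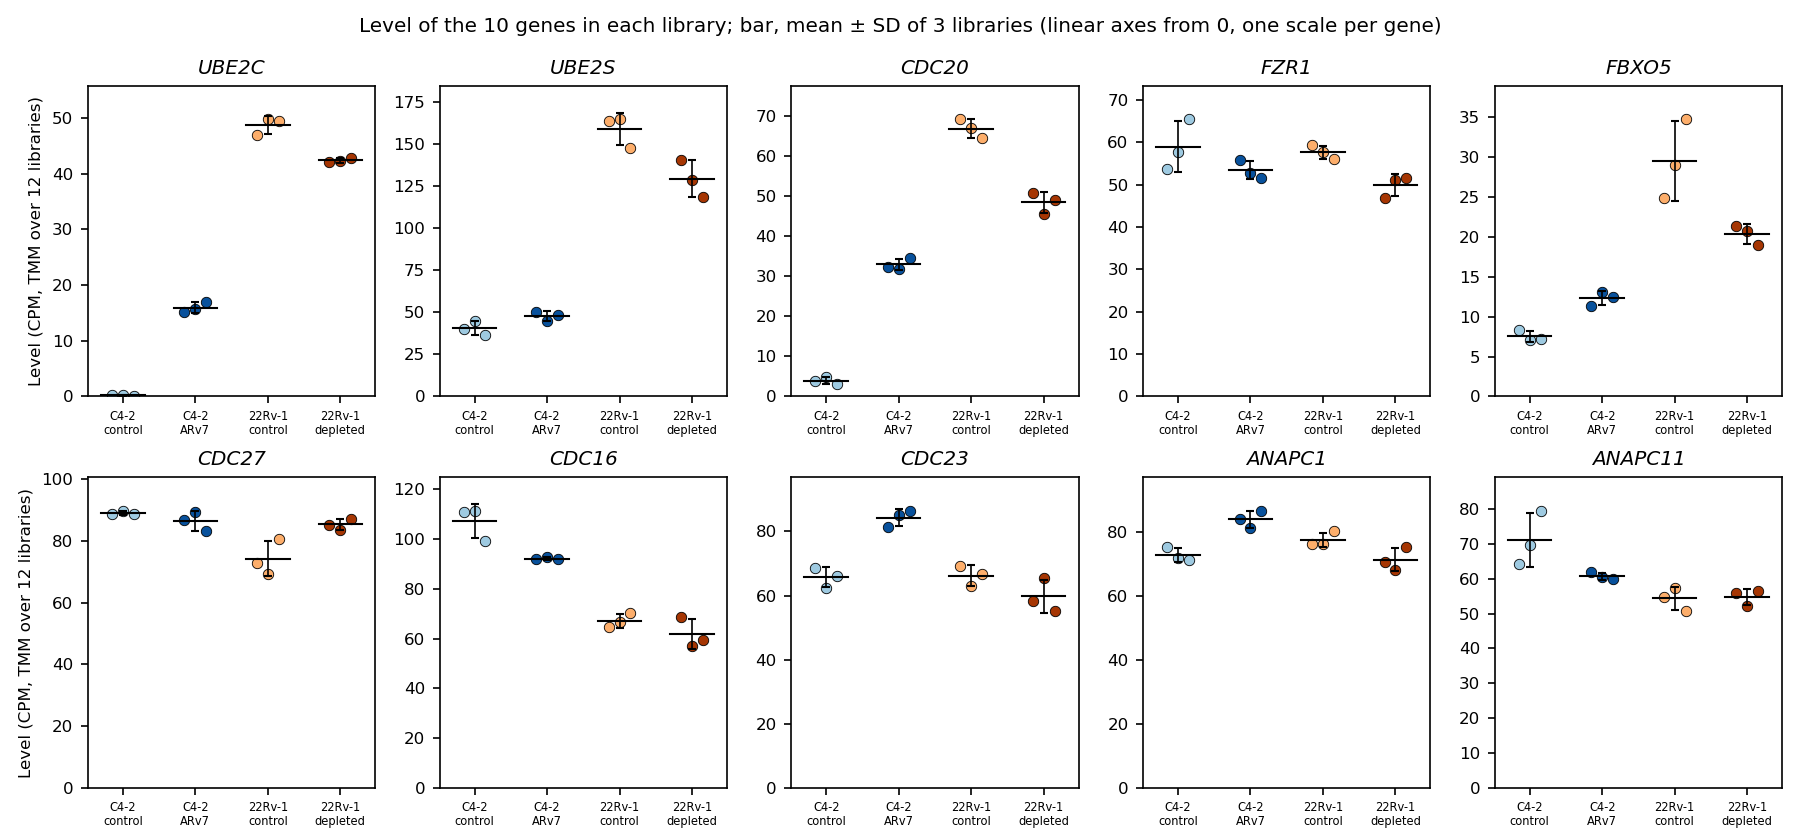
Level of each of the 10 genes in CPM (vertical axes, linear from 0, a scale of its own for each gene) in the 12 libraries, by group; points are libraries, bars the mean ± SD of 3. UBE2C is at 0.155 to 0.291 CPM in the C4-2 control libraries and at 15.1 to 17.0 with ARv7, while the 5 subunits in the lower row lie between 50.8 and 111 CPM in every library.

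UBE2S, the chain-lengthening enzyme, moved far less than UBE2C in C4-2. Its level was 40.2, 45.0 and 36.4 CPM in C4-2 control and 50.3, 44.7 and 48.5 with ARv7. These libraries overlapped, with the lowest ARv7 library below the highest control. In 22Rv-1 it was 163, 164 and 148 CPM in control and 141, 129 and 118 after depletion, with no overlap. UBE2S rose by 0.23 ± 0.088 in C4-2 (edgeR adjusted p = 0.0335) and fell by 0.29 ± 0.057 in depleted 22Rv-1 (edgeR adjusted p = 1.23e-05). Without C4-2 control replicate 3 the C4-2 value was 0.15 and did not pass (edgeR adjusted p = 0.111), nor did it without ARv7 replicate 1 (0.137) or ARv7 replicate 3 (0.0962), or in DESeq2 (0.0523). In its promoter, printed above, no TTTGAA was found.

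CDC20, the activator used in mitosis and the target of the spindle checkpoint, had the second-largest change of the 10 genes in C4-2. It was at 3.93, 4.79 and 3.03 CPM in C4-2 control and at 32.3, 31.8 and 34.5 with ARv7. In 22Rv-1 it was at 69.1, 66.9 and 64.4 CPM in control and at 50.7, 45.5 and 48.9 after depletion. No library of a group overlapped another group. CDC20 rose 8.29-fold in C4-2 (log2 change 3.05 ± 0.14, edgeR adjusted p = 5.53e-13, rank 148 of 12783 from the largest rise). In depleted 22Rv-1 it fell by 0.46 ± 0.070 (edgeR adjusted p = 5.58e-08). Both calls held in 15 of 15 alternatives.

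FZR1, which encodes the activator of G1 and late mitosis, did not follow CDC20. Its level was 53.6, 57.6 and 65.4 CPM in C4-2 control, where replicate 3 was highest, and 55.7, 52.8 and 51.7 with ARv7, so the groups overlapped. The log2 change was −0.15 ± 0.081 (95% interval -0.32 to 0.018, edgeR adjusted p = 0.117), though it passed as a fall without control replicate 1 (edgeR adjusted p = 0.0256). In 22Rv-1 FZR1 was at 59.2, 57.6 and 56.0 CPM in control and at 46.8, 51.2 and 51.6 after depletion, with no overlap, and fell by 0.20 ± 0.072 (edgeR adjusted p = 0.0144). That fall was not called with total counts (edgeR adjusted p = 0.0648), in limma on log2(FPKM + 1) (0.0735), without control replicate 1 (0.0528) or without depleted replicate 1 (0.101). FZR1 shares 70 exonic bases with MFSD12 on the opposite strand, and the labels do not give the strand of counting.

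FBXO5, the inhibitor that holds the complex off before mitosis, was at 8.37, 7.08 and 7.15 CPM in C4-2 control and at 11.3, 13.0 and 12.5 with ARv7. In 22Rv-1 it was at 24.8, 29.02 and 34.7 CPM in control and at 21.3, 20.7 and 18.9 after depletion. Neither pair of groups overlapped, and the 22Rv-1 control libraries had the widest spread, with replicate 3 highest. FBXO5 rose 1.61-fold in C4-2 (log2 change 0.69 ± 0.15, edgeR adjusted p = 0.00047) and fell by 0.54 ± 0.10 in depleted 22Rv-1 (edgeR adjusted p = 7.02e-06). Without 22Rv-1 control replicate 3 the change was −0.40 (edgeR adjusted p = 0.00106). FBXO5 passed in 15 of 15 alternatives in each line, and its printed promoter holds TTTGAA once and CCAAT 4 times, unlike its other window.

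The 5 subunits CDC27, CDC16, CDC23, ANAPC1 and ANAPC11 changed by small amounts and in both directions. CDC27, CDC16 and CDC23 are scaffold subunits built of tetratricopeptide repeats, CDC27 being one that binds the activators. ANAPC1 is the largest scaffold subunit and ANAPC11 the RING subunit that receives the charged conjugating enzyme. In C4-2 with ARv7, CDC23 and ANAPC1 rose, CDC16 and ANAPC11 fell, and CDC27 did not pass.

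CDC23 was at 68.7, 62.4 and 66.0 CPM in C4-2 control and at 81.4, 85.0 and 86.4 with ARv7, with no overlap. It rose by 0.35 ± 0.069 (edgeR adjusted p = 0.000245), the largest change among these 5 subunits in C4-2. CDC23 shares 68 exonic bases (1.47% of its exonic length) with KIF20A, a mitotic kinesin gene on the opposite strand that went from 24 to 610 reads over the C4-2 groups. The part of those reads in the count of CDC23 was not tested. ANAPC1 rose by 0.19 ± 0.067 (edgeR adjusted p = 0.0179), from 72.9 ± 2.17 to 84.1 ± 2.77 CPM. That call was lost without control replicate 2 (edgeR adjusted p = 0.0723), ARv7 replicate 1 (0.0513) or ARv7 replicate 3 (0.0888).

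CDC16 fell by 0.23 ± 0.066 in C4-2 (edgeR adjusted p = 0.00568), from 111, 111 and 99.4 CPM to 91.8, 92.7 and 92.0. ANAPC11 fell by 0.24 ± 0.079 (edgeR adjusted p = 0.0142), from 64.1, 69.5 and 79.5 CPM to 61.8, 60.4 and 59.8. Neither pair of groups overlapped. Both falls depended on the scaling. With total counts the changes of CDC16 and ANAPC11 were −0.085 and −0.088 and did not pass (edgeR adjusted p = 0.317 and 0.322), and they were not called on log2(FPKM + 1) either (limma adjusted p = 0.332 and 0.303). The ANAPC11 change was −0.15 without control replicate 3 (edgeR adjusted p = 0.0577), and it did not pass without ARv7 replicate 2 (0.0517) or ARv7 replicate 3 (0.0507). TMM put the median change of all genes tested at 0.005 in C4-2, and total counts put it at 0.152. CDC27 changed by −0.05 ± 0.064 (95% interval -0.19 to 0.082, edgeR adjusted p = 0.507).

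In depleted 22Rv-1 CDC27 rose by 0.20 ± 0.064 (edgeR adjusted p = 0.00614). Its level was 72.9, 69.4 and 80.5 CPM in control and 85.2, 83.5 and 87.2 after depletion, without overlap, and the call was lost without control replicate 2 (edgeR adjusted p = 0.0802). The other 4 of these subunits did not pass. CDC16 changed by −0.12 (95% interval -0.25 to 0.022), CDC23 by −0.15 (-0.29 to -0.0078), ANAPC1 by −0.12 (-0.24 to 0.012) and ANAPC11 by 0.02 (-0.13 to 0.16), with edgeR adjusted p of 0.166, 0.0752, 0.133 and 0.858. CDC23 did pass as a fall without control replicate 2 (edgeR adjusted p = 0.0442) or depleted replicate 2 (0.0215), and CDC16 without depleted replicate 1 (0.0302).

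Counted together, 6 of the 10 genes rose and 2 fell in C4-2 with ARv7, where 59.1% of all genes tested were called, 29.6% as higher and 29.5% as lower. The median log2 change of the 10 was 0.21, beside 0.005 for all genes tested. In depleted 22Rv-1 1 of the 10 rose and 5 fell, where 48% of all genes were called, 23.9% as higher and 24.1% as lower, and the median was −0.17 beside 0.009. The counts of called genes, 8 of 10 in C4-2 and 6 of 10 in 22Rv-1, were above those backgrounds. So were the 6 rises in C4-2 and the 5 falls in 22Rv-1. The 10 genes are few, were chosen with earlier results known and were not tested as a group. These counts therefore do not set them apart. With total counts 6 of the 10 rose and none fell in C4-2, and 1 rose and 3 fell in 22Rv-1. UBE2S, UBE2C, CDC20 and FBXO5 rose in C4-2 and fell in depleted 22Rv-1, and none of the 5 subunits was called in opposite directions in the 2 lines.

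**Figure D2:**
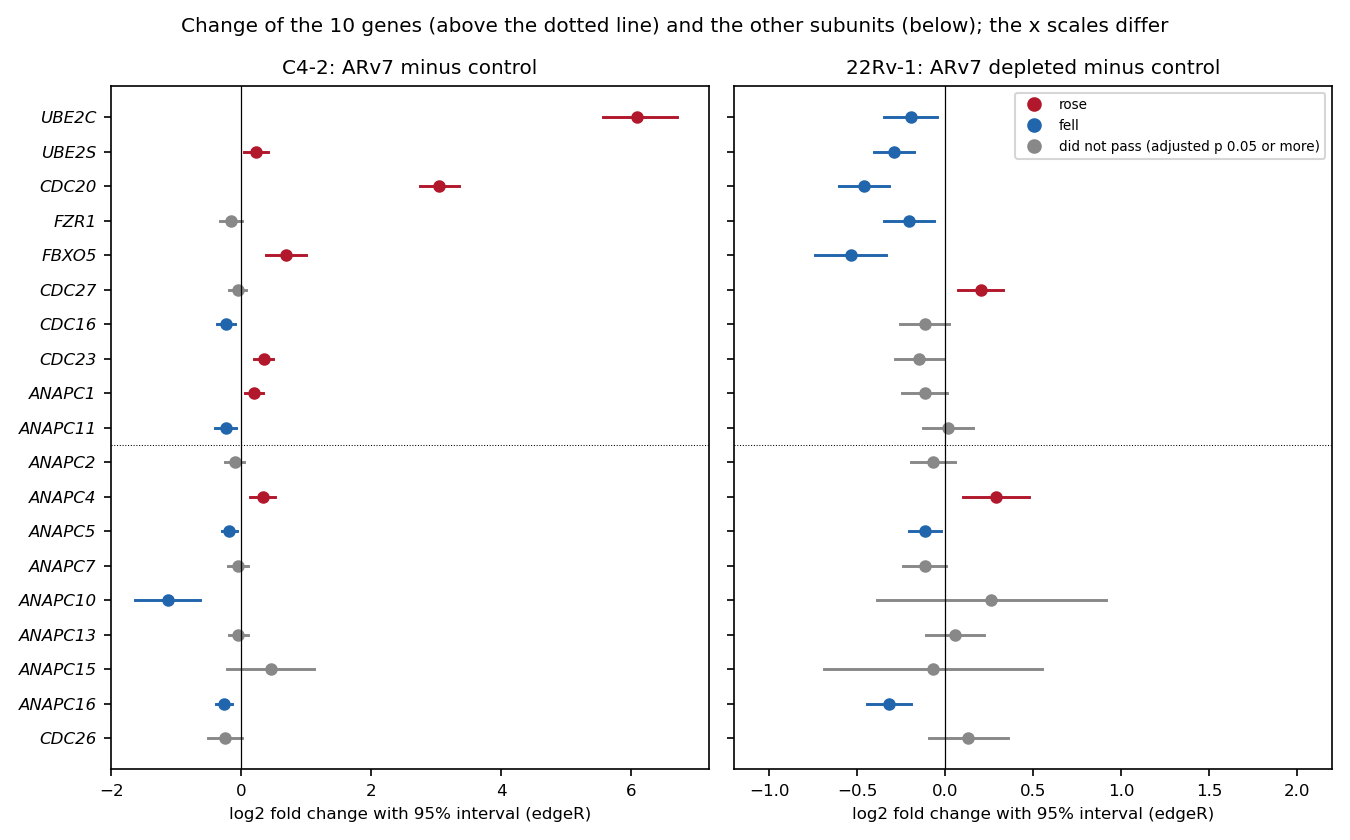
Log2 fold change with its 95% interval (horizontal axes, which differ in scale) for the 10 genes and, below the dotted line, the other 9 subunits, in C4-2 (left) and 22Rv-1 (right); red points rose, blue points fell, grey points did not pass. UBE2C (6.09) and CDC20 (3.05) stand apart on the left, and on the right no change is larger than that of FBXO5 (−0.54) among these 19 genes.

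Of the 9 other subunits 1 rose and 3 fell in C4-2 with ARv7. ANAPC4 rose by 0.33 ± 0.093, ANAPC5, ANAPC10 and ANAPC16 fell, and ANAPC2, ANAPC7, ANAPC13, ANAPC15 and CDC26 did not pass. ANAPC5 fell by 0.18 and ANAPC16 by 0.26 there (edgeR adjusted p = 0.00767 and 0.00102), but neither was called with total counts (0.59 and 0.122) or in limma on log2(FPKM + 1), and ANAPC5 was not called without ARv7 replicate 3 (0.0585). ANAPC10, which helps the complex recognise substrates, fell by 1.13 ± 0.24 in C4-2 (edgeR adjusted p = 0.000417), but from 221 reads over the control group to 105. ANAPC15 likewise had few reads, 87 over the C4-2 control group. Of the exonic length of ANAPC10 10.4% is shared with ABCE1 on the opposite strand, and 27.1% of that of ANAPC15 with LRTOMT. Over the C4-2 groups ABCE1 went from 7091 to 5255 reads and LRTOMT from 350 to 596. The part of those reads in the counts of ANAPC10 and ANAPC15 was not tested. In depleted 22Rv-1 ANAPC4 again rose, by 0.29 ± 0.094, ANAPC5 and ANAPC16 again fell, by 0.11 and 0.32, and the other 6 did not pass. The 22Rv-1 fall of ANAPC5 was not called with total counts (edgeR adjusted p = 0.233), with a replicate block (0.0683), or without control replicate 2 (0.18), depleted replicate 2 (0.0892) or depleted replicate 3 (0.0941). The rise of ANAPC4 in 22Rv-1 was not called without control replicate 1 (edgeR adjusted p = 0.134) or depleted replicate 3 (0.064). Over all 14 subunits 3 rose and 5 fell in C4-2, with a median of −0.08, where 59.1% of all genes were called, and 2 rose and 2 fell in 22Rv-1, with a median of −0.07, where 48% were called. The first share was near its background and the second was below it. With total counts 3 rose and 1 fell in C4-2 and 2 rose and 1 fell in 22Rv-1.

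Per length, the change of the conjugating enzyme and the mitotic activator took them from far below the subunits to their level. The authors' FPKM, reads per length and library total, put the median of the 14 subunits at 12.7, 14.0, 14.4 and 14.3 FPKM in C4-2 control, C4-2 with ARv7, 22Rv-1 control and depleted 22Rv-1. UBE2C stood at 0.0125 ± 0.0037 of that median in C4-2 control, at 0.897 ± 0.074 with ARv7, at 2.69 ± 0.020 in 22Rv-1 control and at 2.43 ± 0.051 after depletion. CDC20 stood at 0.14 ± 0.030, 1.18 ± 0.079, 2.35 ± 0.14 and 1.77 ± 0.074 of it in the same order. UBE2S was already at the subunits' level in C4-2 control, at 1.05 ± 0.10 of the median, and at 1.23 ± 0.084, 4.01 ± 0.29 and 3.40 ± 0.33 in the others.

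FZR1 kept nearly the same ratio in all groups, from 0.567 ± 0.033 in depleted 22Rv-1 to 0.657 ± 0.074 in C4-2 control. The ratio of the activators, CDC20 over FZR1 in FPKM, was therefore 0.218 ± 0.061 in C4-2 control, 1.99 ± 0.15 with ARv7, 3.73 ± 0.029 in 22Rv-1 control and 3.13 ± 0.32 after depletion. UBE2C over UBE2S was 0.0119 ± 0.0034 in C4-2 control but 0.728 ± 0.064, 0.672 ± 0.054 and 0.718 ± 0.068 in the other groups, whose libraries overlapped. FBXO5 stayed below the subunits everywhere, at 0.141 ± 0.013, 0.230 ± 0.018, 0.541 ± 0.083 and 0.389 ± 0.031 of their median. These ratios of RNA are descriptions, and no test was made on them.

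**Figure D3:**
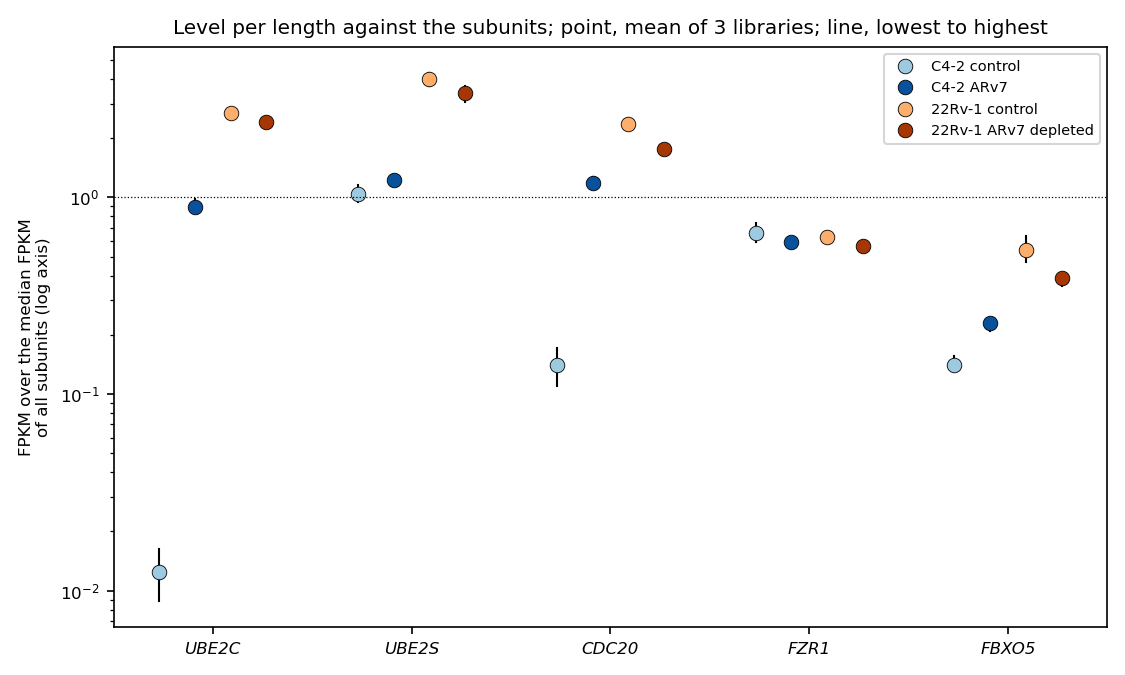
FPKM of UBE2C, UBE2S, CDC20, FZR1 and FBXO5 divided by the median FPKM of the 14 subunits in the same library (vertical log axis), by group; points are means of 3 libraries and lines run from the lowest to the highest. UBE2C climbs from 0.0125 in C4-2 control to 0.897 with ARv7, while FZR1 lies between 0.532 and 0.739 in all 12 libraries.

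The change from lower to higher ARv7 was tested for a difference between the lines in a fit of all 12 libraries, in which 50.7% of all genes differed. Lower and higher here refer to the constructs named in the labels. UBE2C and CDC20 changed more in C4-2, by 5.90 ± 0.26 and 2.60 ± 0.15 on the log2 scale (edgeR adjusted p = 1.96e-20 and 5.36e-17), in all 18 alternatives. FZR1 and CDC16 differed in the other direction, by −0.35 ± 0.11 and −0.34 ± 0.099 (edgeR adjusted p = 0.00725 and 0.00429), and neither was called with total counts (0.21 and 0.214). For the remaining 6 of the 10 genes no difference was shown. The interval of the difference was -0.27 to 0.16 for UBE2S and -0.21 to 0.54 for FBXO5 (edgeR adjusted p = 0.689 and 0.489). It was -0.028 to 0.34 for CDC27, 0.0046 to 0.41 for CDC23, -0.10 to 0.27 for ANAPC1 and -0.43 to 0.0058 for ANAPC11, with edgeR adjusted p of 0.154, 0.0825, 0.463 and 0.099. With total counts CDC27, CDC23 and ANAPC1 passed (edgeR adjusted p = 0.00228, 0.00162 and 0.0159). In all, CDC23 passed in 4 of 18 alternatives, ANAPC11 in 3, CDC27 in 2 and ANAPC1 in 1. Among these were, without C4-2 control replicate 1, CDC23 and ANAPC11 (edgeR adjusted p = 0.048 and 0.0246), without 22Rv-1 depleted replicate 3, CDC23 (0.039), and without 22Rv-1 control replicate 3, CDC27 (0.0447).

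The 4 groups ranked in the same order for UBE2C, UBE2S, CDC20 and FBXO5: C4-2 control lowest, then C4-2 with ARv7, depleted 22Rv-1 and 22Rv-1 control. Each step in that order passed for each of the 4 genes, within a line as given above. Between the lines, depleted 22Rv-1 stood above C4-2 with ARv7 by 1.41 ± 0.094 on the log2 scale for UBE2C, 1.43 ± 0.075 for UBE2S, 0.56 ± 0.086 for CDC20 and 0.73 ± 0.13 for FBXO5. The edgeR adjusted p-values were 2.64e-16, 2.26e-19, 3.47e-07 and 2.57e-06. Thus the 22Rv-1 cells with the short hairpin against ARv7 still held more of these 4 transcripts than the C4-2 cells with ARv7. The lines differ in origin and much else.

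The other 6 genes had no such order. FZR1 ranked depleted 22Rv-1, C4-2 with ARv7, 22Rv-1 control and C4-2 control, with no neighbours shown to differ. The ends of that order did differ, by 0.24 ± 0.077 (edgeR adjusted p = 0.0048), in 16 of 18 alternatives. CDC16 ranked the other way round from UBE2C: its 22Rv-1 groups, not shown to differ, were lowest, C4-2 with ARv7 was above 22Rv-1 control by 0.46 (edgeR adjusted p = 2.79e-07) and C4-2 control was highest. For CDC23, C4-2 with ARv7 stood above the other 3 groups, by 0.35 over the next (edgeR adjusted p = 3.07e-05). CDC27 was lowest in 22Rv-1 control, ANAPC11 highest in C4-2 control, and no neighbours in the order of ANAPC1 were shown to differ. At the ends of the ANAPC1 order, depleted 22Rv-1 was below C4-2 with ARv7 in 18 of 18 alternatives (log2 change -0.272 to -0.171). Of the 10 genes 4 were higher and 3 lower in 22Rv-1 control than in C4-2 control, where 83.4% of all genes differed. The other comparisons across lines also called 7 of 10: 83.3% of all genes differed between depleted 22Rv-1 and C4-2 control, 80.9% between 22Rv-1 control and C4-2 with ARv7, and 79.8% between depleted 22Rv-1 and C4-2 with ARv7.

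The spindle checkpoint holds CDC20 back until chromosomes are attached to the spindle. Of 8 genes that set up this checkpoint or end it, 6 of the 7 tested rose in C4-2 with ARv7 and MAD2L1BP did not pass, at a median change of 1.89, where 29.6% of all genes were called higher. BUB1 and BUB1B, encoding checkpoint kinases, rose by 3.88 ± 0.23 and 3.66 ± 0.21. MAD2L1, whose protein binds CDC20 directly, rose from 12.7 ± 0.867 to 47.3 ± 2.28 CPM, and TRIP13, an ATPase that remodels it, from 14.7 ± 0.397 to 45.7 ± 2.52 CPM. In depleted 22Rv-1 6 of 8 fell and TTK and MAD1L1 did not pass, at a median of −0.37, where 24.1% of all genes were called lower, with BUB1B at −0.54 and BUB1 at −0.24. MAD1L1 had few reads, 39 over 22Rv-1 control and 22 after depletion, so its result says little. It was the gene not tested in C4-2, with 5 reads over control and 24 with ARv7. The fall of BUB1 was not called with total counts (edgeR adjusted p = 0.0763), in DESeq2 (0.0527), or without control replicate 1 (0.133), depleted replicate 1 (0.188) or depleted replicate 3 (0.0545). Nor was it called in 1 fit of all libraries (edgeR adjusted p = 0.0744) or on log2(FPKM + 1) (limma adjusted p = 0.114). TTK did pass as a fall without control replicate 2 (edgeR adjusted p = 0.0228) or depleted replicate 1 (0.0126). With total counts 6 rose in C4-2 and 5 fell in 22Rv-1.

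Known substrates of the complex, the proteins it marks for destruction, rose nearly throughout in C4-2. Of 24 substrate genes 23 were tested in C4-2 (NUSAP1 had too few counts, 46 reads in control and 11 with ARv7), and 22 rose and 1 fell, at a median of 3.13, while the background for a rise was the 29.6% of genes given above. RRM2, a subunit of ribonucleotide reductase, rose by 4.20 ± 0.094, CDC6, which licenses replication origins, by 3.34 ± 0.12, and FOXM1, a transcription factor of mitotic genes, by 3.20 ± 0.15. CDC25A, a phosphatase that activates cyclin-dependent kinases, rose by 1.06 ± 0.14. The one that fell was TK1, a thymidine kinase, by 0.27 ± 0.067, and with total counts no substrate was called lower (TK1 edgeR adjusted p = 0.101).

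In depleted 22Rv-1 17 of the 24 substrates fell and 7 did not pass, at a median of −0.35, where 24.1% of all genes were called lower. CDC25A fell by 0.95 ± 0.082, FOXM1 by 0.70 ± 0.060, TK1 by 0.53 ± 0.059, RRM2 by 0.42 ± 0.050 and CDC6 by 0.34 ± 0.065. The 7 that did not pass, CCNB1, CCNA2, PTTG1, GMNN, HMMR, NUSAP1 and BIRC5, include mitotic cyclin B1 and securin (PTTG1). CCNA2 did pass as a fall without control replicate 2 (edgeR adjusted p = 0.0226) or depleted replicate 1 (0.0138), and CCNB1 without depleted replicate 1 (0.0335). PTTG1 was at 27.4 ± 1.86 CPM in control and 28.5 ± 2.68 after depletion. With total counts 13 of the 24 fell, and the proliferation markers moved in the same direction, as given in the opening.

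**Figure D4:**
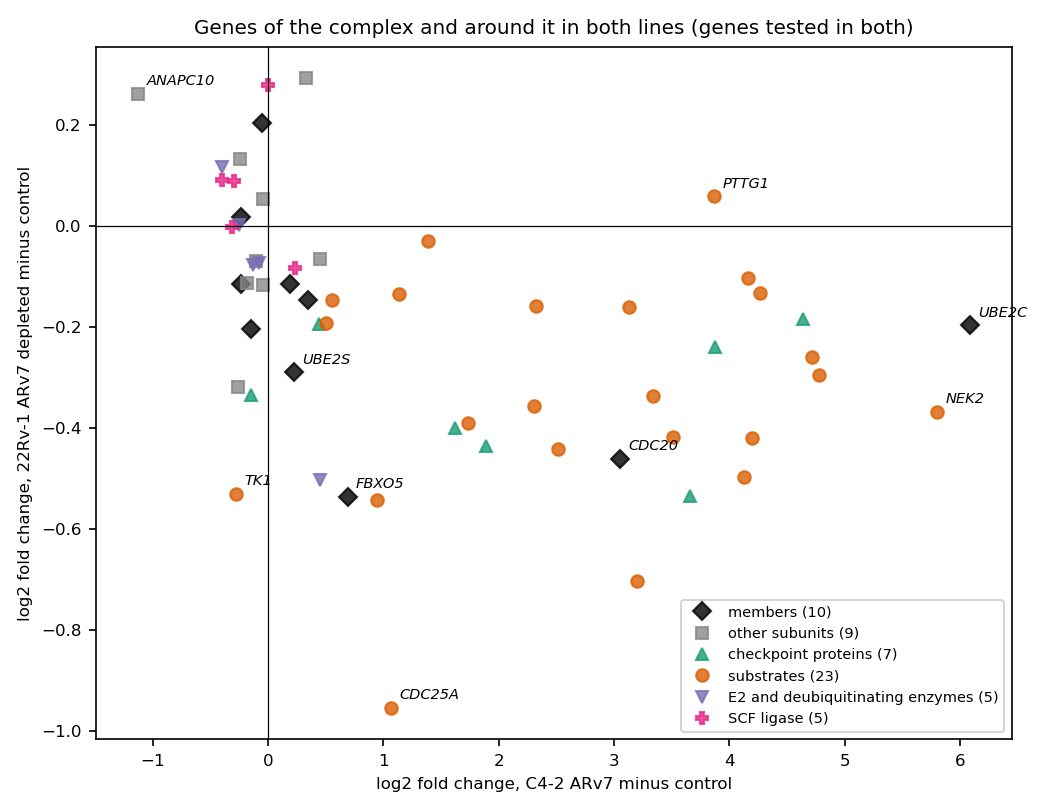
Log2 fold change in C4-2 (ARv7 minus control, horizontal) against 22Rv-1 (ARv7 depleted minus control, vertical) for the listed genes tested in both lines, by list; the scales of the axes differ. The 14 subunits lie between −1.13 (ANAPC10) and 0.45 on the horizontal axis and between −0.32 (ANAPC16) and 0.29 (ANAPC4) on the vertical. Substrates and checkpoint genes spread to the right, and UBE2C lies farthest right at 6.09 with only −0.20 on the vertical axis.

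The enzymes that act beside UBE2C or against the complex, and the other main cell-cycle ligase, changed in both directions. In C4-2 each listed gene tested changed less than UBE2C, CDC20 or FBXO5. Of 6 genes of chain-initiating UBE2D enzymes and opposing deubiquitinases 5 were tested, and in C4-2 USP37 rose by 0.45 ± 0.11 while UBE2D3 and UBE2D2 fell by 0.40 and 0.25, where 59.1% of all genes were called. The fall of UBE2D2 was not called with total counts (edgeR adjusted p = 0.20) or on log2(FPKM + 1) (limma adjusted p = 0.192). USP37, a deubiquitinase that protects cyclin A, fell by 0.50 ± 0.081 in depleted 22Rv-1, where UBE2D3 rose by 0.12 and 48% of all genes were called. That rise of UBE2D3 was not called with a replicate block (edgeR adjusted p = 0.08), in DESeq2 (0.0505), in 1 fit of all libraries (0.0857), without a count filter (0.0622), or without control replicate 1 (0.13) or 2 (0.211) or depleted replicate 1 (0.139) or 2 (0.176). OTUD7B, another deubiquitinase, changed by −0.13 in C4-2 and −0.08 in 22Rv-1 and did not pass in either. Of 5 genes of the SCF ligase 3 fell in C4-2: CUL1 by 0.40, SKP1 by 0.31 and RBX1 by 0.29, where 29.5% of all genes were called lower. The fall of RBX1 was not called with total counts (edgeR adjusted p = 0.142) or on log2(FPKM + 1) (limma adjusted p = 0.145). In depleted 22Rv-1 BTRC rose by 0.28 and the other 4 did not pass, where 23.9% were called higher. BTRC was not called without control replicate 1 (edgeR adjusted p = 0.0632). With total counts 1 enzyme rose and 1 fell in C4-2, and of the 5 SCF genes 1 (FBXW7) rose and 2 fell. SKP2, an SCF gene counted here with the substrates, rose from 49.0 ± 1.62 to 70.1 ± 0.708 CPM in C4-2. It fell by 0.19 in depleted 22Rv-1 (edgeR adjusted p = 0.0136). That fall was not called with total counts (edgeR adjusted p = 0.0668), without depleted replicate 3 (0.145) or on log2(FPKM + 1) (limma adjusted p = 0.21).

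The genes whose pattern over the 12 libraries was most like that of UBE2C were found by the root mean square difference of log2 CPM, each gene centred on its own mean, among 14234 genes. NNT, the mitochondrial transhydrogenase gene, was nearest at 0.271, followed by ASF1B (0.290), a histone chaperone gene, TOP2A (0.322), EXO1 (0.322), an exonuclease gene, and BRIP1 (0.329), a helicase gene. The median over all genes was 2.87. NNT was at 0.273 CPM in C4-2 control, 11.3 with ARv7, 44.3 in 22Rv-1 control and 38.7 after depletion. CDC20 was at 1.30, rank 121, and MKI67 at 0.878, rank 58. UBE2S and FBXO5 were at 2.25 and 2.23, and the 5 subunits at 2.85 to 3.16. Genes were not scaled to an equal size of change, so UBE2S and FBXO5 lie far off although their groups rank as those of UBE2C do. In C4-2 control UBE2C (0.223 CPM) and NNT stood near the level of 3 counts, 0.204 to 0.244 CPM.

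Positions are given on GRCh38, which the deposited coordinates match although the labels name hg18. UBE2C (ENSG00000175063) lies on chromosome 20 at 45812576 to 45816957 (+ strand), UBE2S (ENSG00000108106) on 19 at 55399745 to 55407788 (−), CDC20 (ENSG00000117399) on 1 at 43358981 to 43363203 (+), FZR1 (ENSG00000105325) on 19 at 3506311 to 3538334 (+) and FBXO5 (ENSG00000112029) on 6 at 152970519 to 152983579 (−). CDC27 (ENSG00000004897) lies on 17 at 47117703 to 47189422 (−), CDC16 (ENSG00000130177) on 13 at 114234887 to 114272723 (+), CDC23 (ENSG00000094880) on 5 at 138187650 to 138213343 (−), ANAPC1 (ENSG00000153107) on 2 at 111611639 to 111884690 (−) and ANAPC11 (ENSG00000141552) on 17 at 81890790 to 81900991 (+). GENCODE 29 names 4 pseudogenes of UBE2C, 2 of UBE2S, 1 of CDC20, 3 of CDC27 and 1 of ANAPC1. Reads shared with these copies could not be separated, so the low counts of UBE2C in C4-2 control are a level for the gene as counted.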

How the data were processed

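RNA of 12 dishes was sequenced on an Illumina NovaSeq instrument, per the labels, and reads were trimmed with Cutadapt 2.7, per the submitters' processing notes. Alignment, counting and strand are not described in the sources used here. The authors deposited raw read counts per gene, used for all tests, and FPKM, used for ratios between genes. One of the 19974 lines had no gene identifier and was left out.

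Each line was tested alone with edgeR 4.0.16 in R 4.3.3 (filterByExpr, TMM, quasi-likelihood F-test, two-sided, Benjamini-Hochberg adjusted p under 0.05 over all genes tested: 12783 for C4-2, 13459 for 22Rv-1). Fitting all 12 libraries together (14235 genes) gave the difference between lines, comparisons across lines and the CPM levels. The standard error is the log2 change divided by the root of F. A gene at 3 counts stands at 0.204 to 0.244 CPM, and intervals on counts cover counting error only. The scripts were tested on simulated data.

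The members and lists were chosen with earlier results of these data known. All members and subunits are named. Of each other list, up to 4 genes with the smallest adjusted p and those moving against most called genes are named, plus the 5 genes most like UBE2C. MAD2L1BP, TTK, MAD1L1, PTTG1 and the other substrates that did not pass were named after their values were seen, as was SKP2. Alternatives were DESeq2 1.42.0, its size factors, total counts, other count filters, a replicate block, 1 fit of all libraries, glmTreat against a fold of 1.2, limma 3.58.1 on log2(FPKM + 1) and leaving out each library. The level of the targeted gene is not reported here.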

Additional observations from a re-analysis of the deposited data

Results flagged for a closer look

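For 4 of the 10 genes the change from lower to higher ARv7 differed between C4-2 and 22Rv-1 in the direct test (edgeR on all 12 libraries, log2 difference, C4-2 minus 22Rv-1). The difference was 5.90 for UBE2C and 2.60 for CDC20. For both genes, all 3 libraries of C4-2 with ARv7 were above all 3 of C4-2 control. All 3 of 22Rv-1 control were above all 3 of depleted 22Rv-1. The difference was −0.35 for FZR1, whose log2 change was −0.15 in C4-2 with ARv7, not past the threshold, and −0.20 in depleted 22Rv-1. It was −0.34 for CDC16, which fell by 0.23 in C4-2 and had a change of −0.12 in depleted 22Rv-1. In this test 50.7% of all genes differed.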

How the results depend on the processing

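With glmTreat against a fold of 1.2, 4661 genes were called in C4-2 and 2862 in 22Rv-1, beside 7557 and 6467. Leaving out 1 library at a time gave 6673 to 7870 calls in C4-2, 5793 to 6532 in 22Rv-1 and 6752 to 7308 for the difference between lines. The share of calls that were higher went from 50% with TMM to 67.2% with total counts in C4-2, from 49.8% to 58.5% in 22Rv-1 and from 54% to 72% for the difference. ANAPC1 reversed in 1 comparison: between depleted 22Rv-1 and C4-2 control it was −0.03 with TMM and 0.17 with total counts (edgeR adjusted p = 0.0207), and the cause was not tested. Against a fold of 1.2, UBE2S, CDC16, CDC23, ANAPC1 and ANAPC11 were not called in C4-2, nor UBE2C, UBE2S, FZR1 and CDC27 in 22Rv-1. Replicate numbers did not pair the samples, since deviations of same-numbered libraries correlated at -0.0167 to 0.0201 in C4-2 and -0.058 to -0.00647 in 22Rv-1. With a replicate block 7310, 6203 and 6865 genes were called in C4-2, in 22Rv-1 and for the difference, and no call of the 10 genes changed. Among the other genes of the pathway the block ended 4 calls, all in 22Rv-1: the falls of the substrates SGO1 and CKAP2 (15 rather than 17 fell) and of ANAPC5, and the rise of UBE2D3 (edgeR adjusted p = 0.0549, 0.0678, 0.0683 and 0.08). C4-2 control replicate 3 stood apart most from its group (chi-square per degree of freedom 13 and 7.15, other pairs of replicates 2.12 to 4.77). The 9 reads of UBE2C in C4-2 control limit its fold change, and the log2 change ranged from 3.54 in limma on log2(FPKM + 1), where the added 1 limits it, to 6.32.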

Other observations

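CDC23, the subunit with the largest called rise in C4-2, shares exonic bases with KIF20A on the opposite strand. KIF20A rose by 4.59 in C4-2 and fell by 0.46 in depleted 22Rv-1 (edgeR adjusted p = 1.51e-12 and 1.72e-05).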
